A study of Homo sapiens with 12 samples.

Results

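The genes described here are FOXO1 and FOXO3, a pair of forkhead transcription factors, with 6 genes known as FOXO targets: PIK3IP1, RICTOR, SESN1, SESN3, FBXO32 and CCNG2. They were taken as a named list with earlier results of these data known, so that counts over the list are descriptions, and all 8 were found among the 11548 genes of the table. RNA of 3 wild-type human hepatocellular carcinoma (HCC) cell lines, Hep3B, Huh7 and MHCC97H, was sequenced with 1 library per line and treatment, 12 in all. Cells were untreated, or treated with AZD8055, an inhibitor of the mTOR kinase, at 100 nM, with compound #57, an inhibitor of the phosphatase SHP2, or with both, where the dose of compound #57 was 5 µM. The dose of compound #57 alone is not given in the sources used here. Exposure lasted 48 h in Hep3B and Huh7 and 24 h in MHCC97H, and for MHCC97H the line and its shorter exposure cannot be told apart.

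FOXO proteins are held in check by the PI3K-AKT pathway. AKT phosphorylates them, 14-3-3 proteins bind the phosphorylated form, and the factor leaves the nucleus. When AKT signalling falls, FOXO factors return to the nucleus and switch on genes of growth arrest, protein breakdown and stress resistance. Several targets act back on the same pathway: PIK3IP1 restrains PI3K, RICTOR is the defining subunit of mTORC2, the complex that phosphorylates AKT, and the sestrins SESN1 and SESN3 restrain mTORC1. In liver, FOXO1 is best known as the factor through which insulin represses glucose production. FOXO activity is set largely by where the protein is, which RNA levels do not show.

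The letters most often bound by FOXO factors are GTAAACA. They were searched on both strands, where the other strand reads TGTTTAC, so that each set of letters is 1 motif. In the RefSeq promoters of GRCh38.p14, from 250 bases before to 50 after the gene start, 7 of the genes had an entry and 0 held the motif, against 3.41% of 27305 promoters. The looser words CAAAACA and TAAACA, the second of which lies inside GTAAACA, were also in 0 of the 7, against 4.92% and 12.4% of promoters. After this was seen, a wider window of hg38 was read, from 2000 bases before to 500 after the GENCODE gene start. It held the motif in 4 of the 8 genes, against 24.5% of the 10602 genes with a window. The matches are shown with 11 bases on each side, to give the letters behind this count. FBXO32, RICTOR, SESN1 and SESN3 held 0 matches, so that genes with and without a match are found both among those called higher with the combination and among the others. The motif is in capitals and each sequence follows the strand of its gene. CCNG2 has matches at chr4:77155936-77155964 and chr4:77156188-77156216 (plus strand), FOXO1 at chr13:40666950-40666978 (minus strand), FOXO3 at chr6:108557979-108558007 (plus strand) and PIK3IP1 at chr22:31292455-31292483 (minus strand).
CCNG2, first match: ggagggagagaGTAAACAaataaatgttc
CCNG2, second match: taattattagaTGTTTACgtaccctcatc
FOXO1: gctgctccgtaGTAAACAaagtgtcgccg
FOXO3: cacgtgcgctgGTAAACAagcgcgcgcgg
PIK3IP1: taaagagaggcTGTTTACcagaacagcat
The matches of CCNG2, FOXO1 and FOXO3 lie upstream of the gene start, at 1260 and 1008, 326 and 1845 bases, and that of PIK3IP1 begins 62 bases downstream. A match describes the letters only, and no factor binding was measured.

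Library totals ran from 10659951 to 15957252 reads, of which the table covered between 98.6% and 99.3%. Of 10 markers of the hepatocyte lineage, all had reads in every Hep3B and Huh7 library, with a lowest value of 518 reads, and their summed share of a library ran from 2.23% to 6.22% in Hep3B and from 3.49% to 5.27% in Huh7. In MHCC97H it ran from 0.0143% to 0.0347%, with TTR at 0 reads in 2 of the 4 libraries, GPC3 at 3 to 6 and APOA1 at 4 to 10, while HNF4A had 775 to 2041 reads, FGB 157 to 1515 and ALB 203 to 834. Of markers of other cell types the table held LYZ of the immune cell list, PECAM1 of the endothelial list and COL1A1, COL1A2 and LUM of the fibroblast list. In bulk RNA, fewer cells of a type and less RNA per cell cannot be told apart. Tests across the cell lines used limma, with Benjamini-Hochberg adjustment over all 11548 genes and calls at an adjusted p under 0.05. Nothing in the sources shows separate cultures behind one condition. The p-values of the treatment tests therefore measure the spread between cell lines and not between repeated cultures. In the tests between cell lines, the 4 differently treated libraries of a line stand in for replicates. Those p-values do not measure the spread between repeated cultures either.

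The level of every gene in every library is shown first. Values are the log2 of 1 plus the reads per 10000000 sequenced, the scale of the deposited table.

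Of the factors themselves, FOXO1 stood at 8.76 in untreated Huh7 cells, 10.04 with AZD8055, 7.61 with compound #57 and 9.18 with the combination. In Hep3B the values were 9.25, 9.56, 8.13 and 9.23 in the same order. In MHCC97H they were 7.02, 7.92, 7.21 and 8.03. FOXO1 was therefore highest with AZD8055 and lowest with compound #57 in Hep3B and Huh7, while in MHCC97H both treatments with AZD8055 were high and both without it low. Against untreated cells, AZD8055 gave a log2 change of 0.30 for Hep3B, 1.29 for Huh7 and 0.90 for MHCC97H, and the mean was 0.83 (SE 0.29, limma adjusted p = 0.109). With compound #57, the change was -1.12 in Hep3B, -1.14 in Huh7 and 0.18 in MHCC97H, with a mean of -0.69 (SE 0.29, limma adjusted p = 0.207). Without MHCC97H, the mean was -1.13 and was called (limma adjusted p = 0.0442), whereas without Huh7 it was -0.47 (limma adjusted p = 0.579) and without Hep3B -0.48 (limma adjusted p = 0.794). With the combination, FOXO1 differed from the untreated level by -0.03 in Hep3B, 0.42 in Huh7 and 1.003 in MHCC97H. Its mean against untreated cells was 0.47 (limma adjusted p = 0.229), and against compound #57 it was 1.16 (SE 0.29, limma adjusted p = 0.0558), higher in 3 of 3 lines. Without MHCC97H the latter was 1.33 (limma adjusted p = 0.0440), without Huh7 0.96 (limma adjusted p = 0.416) and without Hep3B 1.19 (limma adjusted p = 0.163).

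FOXO3 rose with the combination in every cell line. Its level in untreated cells, with AZD8055, with compound #57 and with the combination was 9.08, 9.20, 9.29 and 9.68 in Hep3B. In Huh7 it was 9.02, 9.52, 9.64 and 9.79. In MHCC97H it was 8.76, 9.59, 9.02 and 9.95. The 3 combination libraries ran from 9.68 to 9.95 and the 3 untreated libraries from 8.76 to 9.08. The share of all genes separated in this way was not counted. Of all genes, 33.4% were higher with the combination in all 3 lines. The mean log2 change was 0.85 (SE 0.17, limma adjusted p = 0.00603), with 0.60 in Hep3B, 0.77 in Huh7 and 1.19 in MHCC97H. With single drugs, the mean changes of 0.49 for AZD8055 (limma adjusted p = 0.106) and 0.36 for compound #57 (limma adjusted p = 0.242) had the same sign in 3 of 3 lines and were not called. FOXO3 has a near-identical copy in the genome, FOXO3B, and how reads shared with it were counted is not given in the sources used here.

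PIK3IP1, a membrane protein that restrains PI3K, had few reads in Huh7 and MHCC97H. In MHCC97H it had 1 read in untreated cells, 26 with AZD8055, 9 with compound #57 and 63 with the combination. In Huh7 the reads were 11, 35, 39 and 44, and in Hep3B, where the gene was higher, they were 73, 109, 136 and 124. The untreated library held the fewest reads in each line. The log2 change with the combination was 0.55 in Hep3B and 2.30 in Huh7. In MHCC97H, where it rests on the single untreated read, it was 4.88, with a 95% interval of the ratio of reads from 3.52 to 11.38 on the log2 scale, which covers counting error only. The mean was 2.57 (SE 0.64, limma adjusted p = 0.0141). It was called at smaller sizes with 10 added to the linear values (1.4991, limma adjusted p = 0.00956) and without MHCC97H (1.42, limma adjusted p = 0.0452). The means of 1.92 with AZD8055 (limma adjusted p = 0.0976) and 1.53 with compound #57 (limma adjusted p = 0.207) were not called, though each was positive in 3 of 3 lines.

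RICTOR moved with AZD8055. In Huh7 it was at 10.15 in untreated cells, 10.998 with AZD8055, 10.12 with compound #57 and 10.65 with the combination. In MHCC97H the values were 9.35, 10.34, 9.21 and 9.87, and in Hep3B they were 9.40, 9.55, 9.34 and 9.82. Both treatments with AZD8055 thus stood above both without it in all 3 lines, whereas compound #57 alone left RICTOR within 0.15 of the untreated level. The mean log2 change was 0.66 with AZD8055 (SE 0.17, limma adjusted p = 0.0575), which was not called, and 0.48 with the combination (SE 0.17, limma adjusted p = 0.0496), which was. That call was at the edge: without Huh7, Hep3B or MHCC97H the change was 0.47, 0.51 and 0.46, with limma adjusted p of 0.243, 0.0509 and 0.102. It was also lost with libraries centred on their medians, where the change was 0.41 (limma adjusted p = 0.0897), and with voom, where it was 0.48 (limma adjusted p = 0.0501).

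SESN1 and SESN3 are sestrins, stress-induced inhibitors of mTORC1. SESN1 was at 7.97 in untreated Huh7 cells, 7.56 with AZD8055, 8.95 with compound #57 and 8.59 with the combination. In Hep3B it was at 7.17, 6.48, 7.95 and 6.72, and in MHCC97H at 5.38, 5.48, 5.92 and 5.93. SESN1 was higher with compound #57 in all 3 lines, by 0.79 in Hep3B, 0.98 in Huh7 and 0.54 in MHCC97H (mean 0.77, SE 0.26, limma adjusted p = 0.147, not called). With AZD8055 it was lower in Hep3B, by a log2 change of -0.68, and in Huh7, by -0.41, and 0.09 in MHCC97H (mean -0.33, limma adjusted p = 0.417). FOXO1 and SESN1 thus had opposite signs for both drugs in Hep3B and Huh7.

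SESN3 split the cell lines. In Hep3B it had 1476 reads in untreated cells, 286 with AZD8055, 1619 with compound #57 and 276 with the combination. In Huh7 the reads were 1720, 850, 2110 and 1024. In MHCC97H they were 0, 8, 5 and 12. Both libraries with AZD8055 were lower than both without it in Hep3B and Huh7, and in MHCC97H the gene was close to undetected. The log2 change with AZD8055 was -2.56 in Hep3B and -0.61 in Huh7. With compound #57 it was -0.42 in Hep3B and 0.53 in Huh7. The higher read number with compound #57 in Hep3B came from a larger library, of 15618241 reads against 10659951 in untreated cells. The mean over the lines with compound #57 was 0.85 (SE 0.89, limma adjusted p = 0.599). Against a floor of 3 reads in the untreated MHCC97H library, SESN3 was at least 2.44-fold higher there with AZD8055, at least 1.90-fold higher with compound #57 and at least 4.21-fold higher with the combination. These bounds take the treated reads as exact, and the 95% intervals of the log2 ratio of reads, which allow for their counting error, began at 0.64, 0.07 and 1.55. The mean over the lines was -0.15 with AZD8055 (SE 0.89, limma adjusted p = 0.931) and had no stable sign: it was -1.58 without MHCC97H, 1.06 without Hep3B, 0.08 without Huh7 and -0.82 with 10 added to the linear values, with limma adjusted p between 0.137 and 0.984. With the combination it was 0.17 (limma adjusted p = 0.894) and likewise ran from -1.46 without MHCC97H (limma adjusted p = 0.0568) to 1.57 without Hep3B (limma adjusted p = 0.219).

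FBXO32, or atrogin-1, a ubiquitin ligase subunit best known from muscle wasting, rose with AZD8055 and with the combination. In MHCC97H it had 230 reads in untreated cells, 981 with AZD8055, 378 with compound #57 and 2007 with the combination. In Hep3B the reads were 7, 16, 10 and 39, and in Huh7 they were 8, 17, 17 and 46. The order untreated, AZD8055, combination held in every line, at far higher levels in MHCC97H than in Hep3B or Huh7. The log2 change with the combination was 2.11 in Hep3B, 2.75 in Huh7 and 3.19 in MHCC97H, with a mean of 2.68 (SE 0.28, limma adjusted p = 0.00168). With AZD8055 it was 0.90, 1.33 and 1.96 in the same order, with a mean of 1.39 (SE 0.28, limma adjusted p = 0.0394). With compound #57 it was -0.03, 1.17 and 0.91, with a mean of 0.68 (limma adjusted p = 0.202). FBXO32 was the one gene of the 8 that was at least 2-fold higher with the combination than untreated in all 3 lines, which held for 3.05% of all genes. It was likewise the one gene at least 2-fold higher in all 3 lines than with AZD8055, against 0.251% of genes, and than with compound #57, against 0.528%. The former rests in Hep3B on 16 and 39 reads, where the 95% interval of the log2 ratio began at 0.40 and the change with 10 added to the linear values was 0.85, under 2-fold. Against compound #57 the mean was 2.003 (SE 0.28, limma adjusted p = 0.0156), and against AZD8055, where it was not called, it was 1.29 (SE 0.28, limma adjusted p = 0.168). The call with AZD8055 was lost with 10 added to the linear values (1.02, limma adjusted p = 0.0805) and in a fit of the compared libraries alone (limma adjusted p = 0.0696). The calls against untreated cells with AZD8055 and against compound #57 were each lost when any line was left out. For AZD8055 the change was then 1.43 without Huh7 (limma adjusted p = 0.366), 1.64 without Hep3B (limma adjusted p = 0.109) and 1.11 without MHCC97H (limma adjusted p = 0.186). Against compound #57 it was 2.21, 1.94 and 1.86 in the same order, with limma adjusted p of 0.389, 0.119 and 0.0656. With 7 to 46 reads, the values in Hep3B and Huh7 are imprecise. For the combination, the 95% interval of the ratio of reads ran from 1.09 to 3.67 in Hep3B and from 1.88 to 4.28 in Huh7 on the log2 scale. For AZD8055 alone it ran from -0.37 to 2.52 in Hep3B and from 0.21 to 2.92 in Huh7.

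CCNG2, a cyclin that slows the cell cycle, rose with the combination and most in MHCC97H. Its level in MHCC97H was 6.31 in untreated cells, 9.26 with AZD8055, 7.46 with compound #57 and 9.85 with the combination. In Huh7 it was 8.45, 9.38, 9.65 and 9.999, and in Hep3B 8.45, 8.51, 8.38 and 9.09. The combination library was the highest of each line. The log2 change with the combination was 0.64 in Hep3B, 1.55 in Huh7 and 3.54 in MHCC97H (mean 1.91, SE 0.51, limma adjusted p = 0.0180). With AZD8055 it was 0.06, 0.92 and 2.95 (mean 1.31, limma adjusted p = 0.133), and with compound #57 it was -0.07, 1.2004 and 1.15 (mean 0.76, limma adjusted p = 0.400). Without MHCC97H the mean was 1.09 with the combination (limma adjusted p = 0.0232) and 0.49 with AZD8055 (limma adjusted p = 0.328).

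Counted over the list, 1 of the 8 genes was called higher with AZD8055, FBXO32, where 2.21% of all genes were called higher by limma. With the combination 5 of 8 were called higher, namely FOXO3, PIK3IP1, RICTOR, FBXO32 and CCNG2, against 20.9% of all genes, and 0 were called lower. All 5 calls were lost without Huh7, where 11 genes of the table were called in all: the changes were then 0.89 for FOXO3, 2.71 for PIK3IP1, 0.47 for RICTOR, 2.65 for FBXO32 and 2.09 for CCNG2, with limma adjusted p between 0.0555 and 0.243. In a fit of the compared libraries alone, FOXO3 and FBXO32 were still called, and PIK3IP1 (limma adjusted p = 0.0855), RICTOR (0.0550) and CCNG2 (0.0651) were not. Against compound #57, 1 of 8 was called higher with the combination, FBXO32, where 2.62% of genes were. With compound #57 alone, 0 of the 8 were called by limma and 1 gene of the table (0.00866%), while 2501 genes had an unadjusted p under 0.05. Between the combination and AZD8055, limma called 0 of the 8 and 0% of the table, with 1673 genes at an unadjusted p under 0.05. The comparisons share libraries and are not independent of each other.

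The direction within single lines was counted without a test. With AZD8055, 6 of the 8 genes were higher in all 3 lines, all but SESN1 and SESN3, against 28.4% of all genes. With compound #57, 3 of 8 were, FOXO3, PIK3IP1 and SESN1, against 30.6%, a share near the background. With the combination 5 of 8 were, against 33.4%. From AZD8055 to the combination 5 of 8 were higher in all 3 lines, against 23.7%, and from compound #57 to the combination 6 of 8, against 26.3%. The median mean change of the 8 genes was 0.75 with AZD8055, 0.72 with compound #57 and 0.67 with the combination, beside medians over all genes of 0.03, 0.05 and 0.09. Within single lines the medians of the 8 genes differed. In Hep3B they were 0.14, -0.04 and 0.48 in the same order, in Huh7 0.89, 0.80 and 0.70, and in MHCC97H 1.47, 0.72 and 2.19.

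Whether both drugs together did more than the sum of their separate changes was also tested. Limma called 0 of the 8 genes and 0% of the table, with 178 genes at an unadjusted p under 0.05. FBXO32 exceeded the sum in all 3 lines, by 1.24 in Hep3B, 0.33 in MHCC97H and 0.25 in Huh7 on the log2 scale (mean 0.61, SE 0.40, limma adjusted p = 0.9999). PIK3IP1 fell short of it in all 3 on this scale, by -0.17, -0.90 and -1.55 in the same order (mean -0.87, SE 0.91, limma adjusted p = 0.9999). This rests on 1 untreated read in MHCC97H and 11 in Huh7, and with 10 added to the linear values the mean was -0.23. In MHCC97H the changes were then 1.39 with AZD8055, 0.73 with compound #57 and 2.50 with the combination, which was above the sum.

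To test a drug within a cell line, a second limma model gave each line a term for AZD8055 and a term for compound #57, each the difference between the 2 libraries with the drug and the 2 without it. The departures from additivity, with 3 residual degrees of freedom, supplied the spread. The AZD8055 term was called higher for 7 of the 8 genes in MHCC97H, all but SESN1, where 30.7% of genes were called in either direction. In Huh7 it was called for FOXO1, RICTOR and FBXO32, all higher, against 25.0% of genes. In Hep3B it was called for FBXO32, which was higher, and for SESN1 and SESN3, which were lower, against 6.60% of genes. FBXO32 was thus called for AZD8055 in each line, by 1.52 in Hep3B (SE 0.32, limma adjusted p = 0.0340), 1.46 in Huh7 (SE 0.32, limma adjusted p = 0.0156) and 2.12 in MHCC97H (SE 0.32, limma adjusted p = 0.00297). In Hep3B this call was lost with 10 added to the linear values (0.91, limma adjusted p = 0.0556).

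The compound #57 term pointed the other way for FOXO1. It was -0.73 in Hep3B (SE 0.19, limma adjusted p = 0.0218) and -1.005 in Huh7 (SE 0.19, limma adjusted p = 0.0206), while the AZD8055 term of FOXO1 was 0.70 in Hep3B (limma adjusted p = 0.0617, not called) and 1.43 in Huh7 (limma adjusted p = 0.00277). In MHCC97H the compound #57 term was 0.14 (limma adjusted p = 0.748). Huh7 had 3 further calls, all higher: SESN1 by 1.003 (limma adjusted p = 0.0195), CCNG2 by 0.91 (limma adjusted p = 0.0368) and FBXO32 by 1.30 (limma adjusted p = 0.0449), the last of which was lost with 10 added to the linear values (0.81, limma adjusted p = 0.0667). In all, the compound #57 term was called for 1 of 8 genes in Hep3B, against 28.9% of all genes, for 4 in Huh7, against 8.82%, and for 0 in MHCC97H, against 3.48% (limma, with 2145 genes of the table at an unadjusted p under 0.05).

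**Figure D1:**
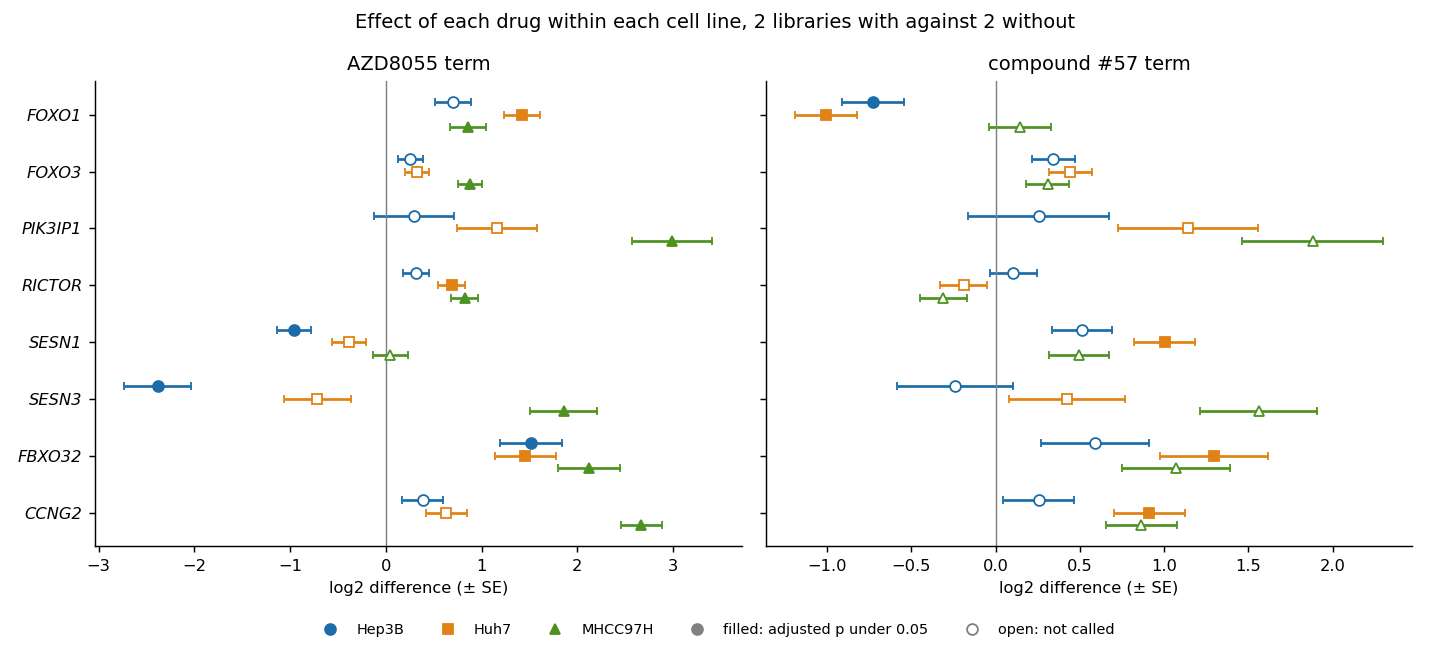
Term of AZD8055 (left) and of compound #57 (right) for each gene in each cell line, as a log2 difference ± SE from the limma model with both drugs, filled where the adjusted p is under 0.05. SESN3 lies at -2.38 in Hep3B and above 0 in MHCC97H with AZD8055, and FOXO1 lies below 0 in Hep3B and Huh7 with compound #57. The size of the SESN3 term in MHCC97H rests on 0 to 12 reads and depends on the 1 added to the linear values.

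The difference between lines was tested directly. The AZD8055 term was larger in MHCC97H than in Hep3B for 3 of 8 genes, SESN3, PIK3IP1 and CCNG2, against 4.64% of all genes called in either direction, and larger than in Huh7 for SESN3 and CCNG2, against 6.36%. For CCNG2 the difference was 2.29 from Hep3B (SE 0.30, limma adjusted p = 0.0160) and 2.04 from Huh7 (SE 0.30, limma adjusted p = 0.0153). For PIK3IP1 it was 2.70 from Hep3B (SE 0.59, limma adjusted p = 0.0422), and 1.32 with 10 added to the linear values (limma adjusted p = 0.0688), where the call was lost. For SESN3 it was 4.24 from Hep3B and 2.57 from Huh7, but rests in MHCC97H on 0 to 12 reads, and with 10 added to the linear values it was 2.89 and 1.26 (limma adjusted p = 0.00455 and 0.0165). Between Huh7 and Hep3B the AZD8055 term was called for 0 of 8 genes by limma, against 0.0693% of the table, with 1179 genes at an unadjusted p under 0.05.

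For compound #57, limma called 0 of the 8 genes in each of the 3 differences between lines. The share of all genes called was 7.54% for MHCC97H against Hep3B, 0.883% for MHCC97H against Huh7 and 0.927% for Huh7 against Hep3B, with 2889, 1781 and 1705 genes at an unadjusted p under 0.05. The compound #57 term of FOXO1 was 0.87 higher in MHCC97H than in Hep3B (SE 0.26, limma adjusted p = 0.0846) and 1.15 higher than in Huh7 (SE 0.26, limma adjusted p = 0.0947), so that a difference was not shown at this threshold.

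Levels were compared between genes per exon length, as reads per 1000 bases of exon per 1000000 reads. Over its 4 libraries, FBXO32 lay between 2.39 and 21.96 in MHCC97H, between 0.0866 and 0.427 in Hep3B and between 0.0678 and 0.535 in Huh7. The ranges of Hep3B and Huh7 overlap and neither reaches that of MHCC97H. SESN3 lay between 2.11 and 13.1 in Hep3B, between 6.68 and 14.7 in Huh7 and between 0 and 0.0918 in MHCC97H. FOXO3 had nearly the same range everywhere, with 7.06 to 10.7 in Hep3B, 6.76 to 11.6 in Huh7 and 5.63 to 12.8 in MHCC97H. FOXO1 lay between 2.17 and 4.36 in MHCC97H, below the 4.69 to 12.6 of Hep3B, and overlapped the 3.27 to 17.7 of Huh7. By their mean per length, the genes of Hep3B ran from FOXO1 (9.41), FOXO3 (8.39), SESN3 (6.80), RICTOR (5.53) and CCNG2 (5.36) to PIK3IP1 (2.27), SESN1 (1.9997) and FBXO32 (0.195). Each gene overlapped the next in this order except CCNG2 with PIK3IP1 and SESN1 with FBXO32. In Huh7 the order was RICTOR (10.95), SESN3 (9.98), CCNG2 (9.57), FOXO3 (9.56), FOXO1 (9.47), SESN1 (4.52), PIK3IP1 (0.675) and FBXO32 (0.241), and each gene overlapped the next except SESN1 with PIK3IP1. The means pool the treatments, and in both Hep3B and Huh7 the first gene of a single library was SESN3 in untreated cells and with compound #57 and FOXO1 with AZD8055. With the combination it was FOXO3 in Hep3B and CCNG2 in Huh7. In MHCC97H the order by mean was FBXO32 (9.54), FOXO3 (8.83), RICTOR (6.45), CCNG2 (6.02), FOXO1 (3.26), SESN1 (0.700), PIK3IP1 (0.512) and SESN3 (0.0466), where the mean of FBXO32 rests on the combination library. Within single MHCC97H libraries, FBXO32 was first with the combination (21.96), while FOXO3 was above it in untreated cells (5.63 against 2.39), with AZD8055 (10.05 against 9.31) and with compound #57 (6.78 against 4.49). Each gene again overlapped the next except FOXO1 with SESN1.

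With treatment as a term, limma called 3 of the 8 genes between Hep3B and Huh7, against 55.1% of all genes, 5 between MHCC97H and Hep3B, against 67.8%, and 6 between MHCC97H and Huh7, against 70.2%, shares near the background. The libraries of a line differ in treatment and are not repeated cultures, so these p-values do not measure the spread between cultures. FBXO32 was higher in MHCC97H by 5.32 than in Hep3B (SE 0.24, limma adjusted p = 4.13e-08) and by 5.08 than in Huh7 (SE 0.24, limma adjusted p = 4.78e-08). SESN3 was called lower in MHCC97H than in either other line, with 0 to 12 reads against 276 to 1619 in Hep3B and 850 to 2110 in Huh7, and no fitted size is given because it depends on the 1 added to the linear values. SESN1 was also lowest in MHCC97H, with differences of -1.40 from Hep3B and -2.59 from Huh7, and FOXO1 with -1.50 and -1.35. PIK3IP1 was highest in Hep3B, by 1.92 over Huh7 (limma adjusted p = 0.0146) and with MHCC97H lower by a difference of -2.95 (limma adjusted p = 0.000925). RICTOR was highest in Huh7, with Hep3B at -0.95 and MHCC97H at -0.79 from it. CCNG2 was lower in MHCC97H than in Huh7, at -1.15 (limma adjusted p = 0.0378), and this call was lost without the untreated libraries (-0.82, limma adjusted p = 0.0904) and without the compound #57 libraries (-0.80, limma adjusted p = 0.205). PIK3IP1 did not differ between MHCC97H and Huh7 at this threshold (-1.03, limma adjusted p = 0.121) but did without the combination libraries (-1.51, limma adjusted p = 0.0353). FOXO3 was called in no pair of lines. These differences are means over treatments to which the lines responded differently, and the untreated libraries alone, with no test, gave other sizes for some. PIK3IP1 was then 3.14 higher in Hep3B than in Huh7 and differed by -5.30 between MHCC97H and Hep3B. From Hep3B to MHCC97H, FOXO1 differed by -2.23 and SESN1 by -1.78 in untreated cells. CCNG2 in untreated MHCC97H cells differed by -2.14 from Hep3B and by -2.14 from Huh7, while Hep3B and Huh7 had nearly the same value. SESN3 had 0 reads in untreated MHCC97H cells, so that no size is given for it.

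The genes with the most similar pattern were found by Pearson correlation over the 12 libraries, after the mean of each cell line was taken away, among 9968 genes with a mean log2 value of at least 6 and no 0. The points share cell lines and treatments, and the values describe these libraries. For CCNG2 the nearest were FOXO4 (0.99), AKNA (0.97) and DYRK1B (0.97). For FBXO32 they were CRADD (0.98), SPPL3 (0.98) and OSER1 (0.98), and for FOXO3 ZDHHC24 (0.98), VPS39 (0.97) and SNX30 (0.97). For PIK3IP1 they were TFDP2 (0.97), YPEL3 (0.96) and CCNG2 itself (0.96). Among the 3 nearest to RICTOR were RAI1 (0.95) and RNF44 (0.95). FOXO1 lay nearest to TTC5 (0.94), ARMCX5 (0.94) and RNF139 (0.93), SESN1 to CES1 (0.96), GSTA1 (0.95) and C5orf30 (0.95), and SESN3 to RMND5A (0.92), DTX4 (0.91) and TTC8 (0.91). Among the 8 genes, FOXO3 followed CCNG2 (0.95), FBXO32 (0.93) and PIK3IP1 (0.92), whereas FOXO1 had 0.75 with RICTOR, 0.29 with FOXO3 and -0.71 with SESN1.

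Other genes around FOXO were counted by list. Of the family relatives, FOXO4 was called higher with the combination (0.97, limma adjusted p = 0.0318), SESN2, the third sestrin, was called lower (-0.83, limma adjusted p = 0.0210), and CCNG1 was called in no comparison. With AZD8055, 3 of 20 other known FOXO targets were called higher and 0 lower, beside 2.21% and 0.753% of all genes: IRS2 (2.59, limma adjusted p = 0.0268) and INSR (1.03, limma adjusted p = 0.0335), the insulin receptor and its substrate, and KLHL24 (1.84, limma adjusted p = 0.0404). With the combination 8 of 20 were called higher and 1 lower, beside 20.9% and 15.1% of all genes. The largest of these were KLHL24 (2.62), IRS2 (2.42), TXNIP (2.28) and GABARAPL1 (1.96), and EIF4EBP1, named after its value was seen, was the one called lower (-1.30). Against compound #57, IRS2 (1.82), KLHL24 (1.73) and INSR (0.86) were called higher and EIF4EBP1 lower (-1.03), beside 2.62% and 1.57% of all genes. The median change of these 20 genes was 0.47 with AZD8055 and 0.67 with the combination.

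Of 15 genes of the PI3K-AKT arm, 4 were called higher with the combination and 0 lower, beside 20.9% and 15.1% of all genes. The share called higher was near the background. Among the 4 were PIK3CD (1.56) and PIK3CA (0.46), catalytic subunits of PI3K, and SGK1 (1.44), a kinase related to AKT. Of 16 genes that bind, export, modify or degrade FOXO proteins, 2 were called higher and 6 lower with the combination, beside the same 20.9% and 15.1% of all genes. The largest were PRMT1 (-1.09), SKP2 (-1.005), a ubiquitin ligase subunit, and the deacetylases SIRT2 (0.79) and SIRT1 (0.77). SKP2 and SIRT1 were also the genes of this list called with AZD8055 (-0.87 and 0.54) and against compound #57 (-1.33 and 0.66). Of all genes, 0.753% were called lower and 2.21% higher with AZD8055, and 1.57% and 2.62% against compound #57. Of 8 mTOR complex genes other than RICTOR, 0 were called higher and 3 lower with the combination, again beside 20.9% and 15.1% of all genes. The 3 were MTOR (-0.46), RPTOR (-0.44) and TTI1 (-0.39), where RICTOR was called higher.

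Lists further from FOXO were counted the same way, beside 20.9% of all genes called higher with the combination and 15.1% called lower. With the combination, 6 of 11 p53 targets were called higher and 1 lower, the largest being TP53INP1 (2.45), BTG2 (2.28), BBC3 (1.90) and AEN (-1.72). Of 8 proliferation genes 0 were called higher and 5 lower, the largest being MKI67 (-1.1996), PLK1 (-1.14), CCNB1 (-0.89) and CDK1 (-0.69). Of 7 genes driven by ERK 0 were called higher and 4 lower, namely ETV4 (-2.67), ETV5 (-2.49), DUSP6 (-2.45) and SPRED2 (-0.72). Of the markers, FGB (2.28) and HNF4A (0.84) of the 10 hepatocyte genes were called higher and APOB (-1.47) lower, COL1A1 (2.15) of the 3 fibroblast genes was called higher, and LYZ of the immune list and PECAM1 of the endothelial list were not called. The part of these changes in the levels of the FOXO genes was not tested. With compound #57 alone and between the combination and AZD8055, limma called 0 genes of all these lists. The ERK genes were nonetheless as low there: 6 of the 7 had a negative mean change with compound #57. Their median change was -3.02 with compound #57 and -2.20 from AZD8055 to the combination, beside -2.45 for the combination against untreated cells.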

How the data were processed

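Poly(A) RNA of 12 libraries was sequenced. The authors aligned reads to hg38, the build also named in the submitters' processing notes. What they deposited for each gene is a log2 value in every library. The aligner, the counting and whether it used strand are not given in the sources used here. Taken back to the linear scale, 100% of values in each library came out as whole reads, within 0.1 read. They were therefore read as log2 of reads per 10000000 plus 1, with 0 reads written as 0.001 and treated as 0. Since the deposited unit is log2, limma on the log2 values was the main test, and the recovered reads served the printed reads, the intervals and voom.

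The genes and lists were chosen with earlier results of these data known. limma 3.58.1 (lmFit, eBayes with trend, R 4.3.3) was fitted to all 11548 genes and 12 libraries, with terms for the treatment and the cell line (6 residual degrees of freedom). Treatments were paired by cell line, since same-numbered libraries are the same line. A second model had a level and a term for each drug in each line (3 residual degrees of freedom). Within a line, a change is the difference of 2 log2 values with a 95% Clopper-Pearson interval of the ratio of reads. Changes of genes with few reads are understated by the 1 added. Exon lengths came from GENCODE release 44. The lists were family relatives (3 of 5 in the table), PI3K-AKT arm (15 of 18), FOXO handling (16 of 16), other FOXO targets (20 of 27), mTOR complex (8 of 10), p53 targets (11 of 13), ERK output (7 of 7), proliferation (8 of 8), and markers of hepatocytes (10 of 10), immune (1 of 5), endothelial (1 of 4) and fibroblast cells (3 of 5). All 8 genes were named in each comparison, of each list at most 4 called genes by size of change, and the 3 genes most alike to each; some of these are not reported here. As alternatives, the fits were repeated with 10 added to the linear values, the 75% of genes with the highest mean, centring on library medians, no replicate block, each line left out, the compared libraries alone, voom on the whole reads, and, for cell lines, each treatment left out or the untreated libraries alone. On simulated data, with 11548 genes, the first model recovered 6%, 68%, 86% and 96% of changes of 0.5, 1, 2 and 3 on the log2 scale, with 6 unchanged genes called, and the second 0%, 18%, 64% and 84%, with 10. Tables and plots were made in Python 3.11.15 (scipy 1.17.1, pandas 2.3.3, numpy 2.4.6, matplotlib 3.10.9).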

Additional observations from a re-analysis of the deposited data

Results flagged for a closer look

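The response to AZD8055 differed between cell lines for 3 of the 8 genes, by a test of the difference itself in the limma model with a term for each drug in each line. Over all genes, 4.64% were called for MHCC97H against Hep3B and 6.36% for MHCC97H against Huh7. The AZD8055 term in MHCC97H was higher than in Hep3B by 2.70 for PIK3IP1, 4.24 for SESN3 and 2.29 for CCNG2, and higher than in Huh7 by 2.57 for SESN3 and 2.04 for CCNG2, on the log2 scale. With 10 added to the linear values, PIK3IP1 was no longer called (1.32, limma adjusted p = 0.0688). SESN3 was then higher by 2.89 than in Hep3B and by 1.26 than in Huh7 (limma adjusted p = 0.00455 and 0.0165). CCNG2 rests on 102 to 1137 reads in MHCC97H, PIK3IP1 on 1 to 63 and SESN3 on 0 to 12. MHCC97H was exposed for 24 h and the other lines for 48 h, so that the line and the time cannot be told apart.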

How the results depend on the processing

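Of 988 recomputed values of the 8 genes, 916 were counted as unchanged, 32 lost a call, 9 gained one and 0 called values reversed. A further 31 changed in sign or in size where the alternative made no call. For tested values, unchanged means the same direction and side of the threshold. The 916 also hold values with no test, for which there is no threshold. These are 116 and 120 changes within lines (10 added, and centring on medians) and 16 differences between untreated libraries alone. Direction was not always kept among the latter: FOXO3 in Hep3B against Huh7 went from -0.18 to 0.06. SESN3 with AZD8055 in MHCC97H went from 2.73 to 0.64 with 10 added. Counts of calls were less stable. With no replicate block (no cell line term), 0 genes and 0 of the 8 were called in every comparison, where the blocked fit called 342 and 1 (AZD8055), 1 and 0 (compound #57), 4154 and 5 (combination) and 483 and 1 (combination against compound #57). With only the compared libraries, the table had 2, 0, 1889 and 265 calls in that order, and the 8 genes 0, 0, 2 and 2. With 10 added to the linear values, 0 of the 8 were called with AZD8055, the AZD8055 term in Huh7 was called for 5 and its difference between Huh7 and Hep3B for 1, SESN3. With the 75% of genes with the highest mean, which leave out FBXO32 and PIK3IP1, 0 and 3 were called with AZD8055 and the combination. With voom, 90 genes were called with compound #57, and 2 of the 8, FOXO1 and FBXO32, for the combination against compound #57. The call of RICTOR with the combination was lost with voom. Without each cell line in turn, the table had 0 to 109 calls with AZD8055, 0 to 778 with compound #57, 11 to 3778 with the combination, 0 to 3 against AZD8055 and 0 to 331 against compound #57, and the 8 genes 0 to 0, 0 to 1, 0 to 4, 0 to 0 and 0 to 1. Centring libraries on their medians moved the share of calls that were higher from 74.6% (255 higher, 87 lower) to 54.1% (256 higher, 217 lower) with AZD8055 and from 58.0% (2410, 1744) to 47.2% (1993, 2229) with the combination. One library per condition and at most 63 reads of PIK3IP1 in Huh7 and MHCC97H, 46 of FBXO32 in Hep3B and Huh7 and 12 of SESN3 in MHCC97H limit what can be resolved.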
